A study of Rattus norvegicus with 90 samples.

Results

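The intervals described here are stretches of the rat genome, named by coordinate rather than by a transcript identifier, that held fewer RNA-seq counts in the liver 8 h after a high dose of thioacetamide than after vehicle. The deposited tables listed 40071 transcripts and 25095 such intervals, on build Rnor_6.0 and with lengths from 1003 up to 20000 bases. No interval overlapped another, and the smallest gap between neighbours was 1049 bases. Levels are given as CPM, an interval's estimated counts divided by the transcript counts of the same library, scaled to 1000000 transcript counts. An interval was eligible with at least 0.5 CPM in at least 4 of the 5 vehicle liver samples at 8 h, which 4731 intervals met. Eligible intervals were ordered by the log2 ratio of the high-dose mean to the vehicle mean, with 0.5 CPM added to each mean, and the 300 with the lowest values were kept, so that the members were selected on this one contrast, 300 of 25095 intervals in all.

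The animals were male Sprague-Dawley rats, 10 weeks old at purchase per the study's methods. They received a single intraperitoneal injection of saline (vehicle, 3 ml/kg) or of thioacetamide at 25 mg/kg (low dose) or 100 mg/kg (high dose), and liver, kidney, and heart were taken 8 or 24 h later, with 5 samples in each of the 18 groups. Per the study's methods each rat gave all 3 organs, so samples of different organs are not from separate animals. Rats of the 8 h groups were injected in the morning and had no food until collection, whereas rats of the 24 h groups were injected in the evening and were fed at first and then fasted for the final 8 h. Kidneys and hearts were powdered whole before RNA was isolated, and the libraries were made from poly-A RNA with a kit that keeps the strand.

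Thioacetamide is a liver toxicant that becomes reactive only after oxidation by cytochrome P450 and flavin-containing monooxygenases, and it injures mainly the hepatocytes around the central veins, where those enzymes are rich. Poly-A reads that fall outside annotated transcripts can come from unannotated exons, extended 3′ ends, unspliced precursors, non-coding RNA, or repeats, and a pseudo-aligner such as Kallisto divides reads shared by similar sequences among them. The sources used here do not state how the intervals were put into the reference, and no annotation of that build was used here, so the intervals are named by position only. In bulk tissue, fewer cells of a type and less RNA per cell cannot be told apart.

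Libraries held between 16332764 and 36303248 estimated counts. In the 30 liver libraries the intervals took between 4.08% and 28.9% of the counts. A large part of that range came from 5 very abundant intervals that are not among the 300, and without these 5 the interval share lay between 2.93% and 7.16%. Vehicle replicate 1 of the liver at 24 h and low-dose replicate 1 of the liver at 8 h were nearly the same library: 99.97% of 21618 targets differed by no more than 1 count, against at most 4.83% for any other pair of libraries compared, and all 300 intervals differed by no more than 1 count. Each carries its own label, and the main values that rest on either are also given without it.

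At 8 h the 300 intervals ran from a log2 difference of -3.79 to -1.21, with a median of -1.61, whereas the other 4431 eligible intervals had a median of -0.02. These values chose the intervals and are a description. At the edge of the selection, chrX:153463612-153483611 stood at -1.2143 and chr12:21774460-21777028 at -1.2090, and just outside it chr1:104166869-104186600 stood at -1.2087 and chr15:47460243-47470362 at -1.2086. In 262 of the 300, every high-dose sample was below every vehicle sample, which was also the case in 10.9% of the other eligible intervals.

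Summed over the 300 intervals, the vehicle livers at 8 h held 3658, 4731, 4964, 4644, and 4818 CPM. The low-dose livers held 1642, 2527, 2581, 2339, and 1953 CPM, and the high-dose livers 1056, 980.0, 1209, 961, and 1091 CPM. The 3 groups did not overlap, and the low-dose mean was 48.4% (51.5% without low-dose replicate 1) and the high-dose mean 23.2% of the vehicle mean. A single interval made up 14.2% of the summed vehicle level. Without it, the low-dose mean was 51.6% and the high-dose mean 25.4% of vehicle.

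**Figure D1:**
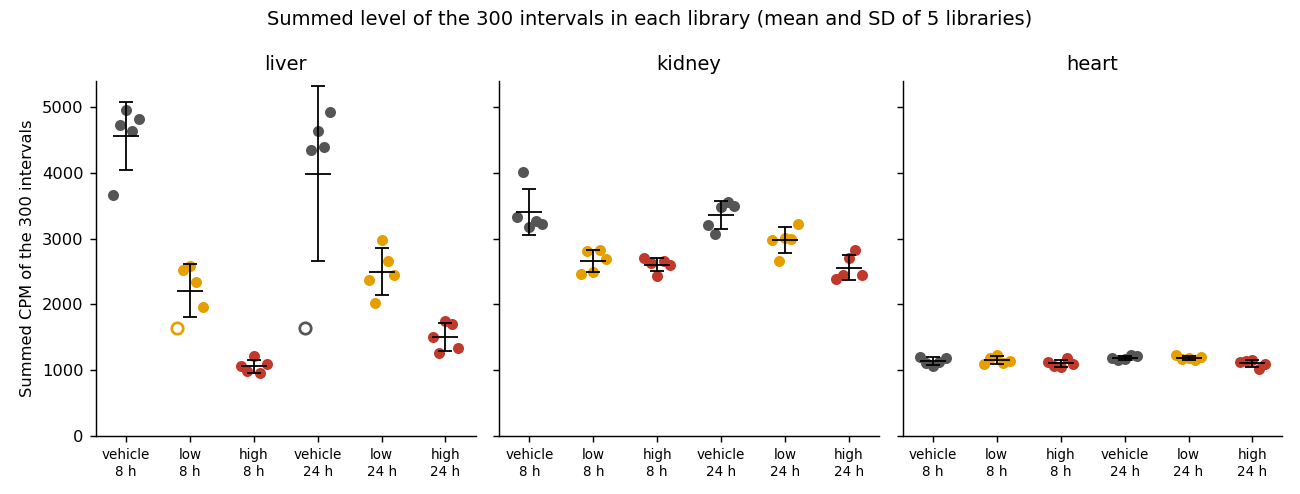
Summed CPM of the 300 intervals (vertical axis) in each of the 90 libraries, by organ, dose, and time; points are libraries and black bars the mean ± SD of 5. The open circles in the liver panel are the nearly identical libraries, both at 1642 CPM: the one labelled vehicle at 24 h lies far below the other 4 of its group, at 4353 to 4922 CPM.

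In vehicle-treated liver the 300 had higher levels than the other eligible intervals. The rule itself favours this, because the same samples form the denominator of the log2 difference and 0.5 CPM is added to each mean. Their median level in the 8 h vehicle samples was 5.85 CPM, against 1.75 CPM for the others, and per kilobase of interval 0.445 against 0.150 CPM. The lowest stood at 0.808 CPM and the highest at 646 CPM. In counts, the median interval had 140.3 per vehicle library and the lowest 19.6. Intervals of exactly 20000 bases made up 149 of the 300 (49.7%) and 41.2% of the other eligible intervals. In 281 of the 300 (93.7%), at least 1 vehicle library at 8 h had a count that was not whole, which shows reads divided between targets, and this was so for 91.8% of the others.

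The most abundant of the 300 was chr5:77903614-77916908, which also had the 4th lowest log2 difference (-3.28). Its 8 h vehicle samples stood at 529, 393, 959.6, 537, and 812 CPM, the low-dose samples at 179, 254, 291, 137, and 73.02 CPM, and the high-dose samples at 77.4, 51.2, 108.8, 29.9, and 62.8 CPM. All treated samples lay below all vehicle samples, and the low- and high-dose groups overlapped in 1 low-dose sample. At 24 h the vehicle samples stood at 179, 214, 357, 537, and 602 CPM and the high-dose samples at 28.3, 31.7, 94.96, 13.1, and 51.8 CPM, again without overlap. In kidney and heart the same interval stood at or below a mean of 1.55 CPM in every group.

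The 2 intervals next in level lie on chromosome 1. At chr1:226108833-226113912 (rank 60), which with chr5:77903614-77916908 had the highest level per kilobase (49.2 and 48.6 CPM), the 8 h vehicle samples stood at 163, 366, 107.7, 302.1, and 311 CPM and the high-dose samples at 50.6, 44.0, 61.5, 59.2, and 78.03 CPM. The high-dose samples varied far less than the vehicle samples, and the groups did not overlap. At 24 h the vehicle samples stood at 87.8, 320.0, 291, 215, and 128 CPM, the low-dose samples at 138, 30.8, 76.5, 107.8, and 51.6 CPM, and the high-dose samples at 7.13, 4.87, 6.47, 13.01, and 11.1 CPM. All high-dose samples were thus lower at 24 h than at 8 h, while the low-dose and vehicle samples at 24 h overlapped. At chr1:225904225-225924224 the high-dose samples stood at 54.3, 53.4, 68.8, 63.5, and 79.2 CPM at 8 h and at 12.1, 10.1, 10.96, 23.5, and 19.8 CPM at 24 h, against a vehicle mean of 216 ± 85.4 CPM at 8 h and 178 ± 79.7 CPM at 24 h (SD, n = 5), or 203 ± 66.9 CPM at 24 h without vehicle replicate 1 (n = 4). Of the 300 intervals, 62 had a lower mean at 24 h than at 8 h after the high dose. The rule favoured low high-dose means at 8 h, so the choice itself tilts this count, which is a description.

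The lowest log2 difference at 8 h belonged to chr13:44375213-44395212 (-3.79). The vehicle samples stood at 12.7, 17.6, 23.5, 14.9, and 12.02 CPM, the low-dose samples at 1.37, 8.31, 4.25, 7.34, and 4.56 CPM, and the high-dose samples at 0.473, 0.647, 0.954, 0.835, and 0.590 CPM. The 3 groups did not overlap. At 24 h the low-dose samples, at 10.8, 12.7, 12.8, 15.9, and 13.6 CPM, lay within the range of the vehicle samples, at 1.37, 10.8, 16.05, 16.9, and 28.5 CPM. Next came chr8:48431387-48437418 (-3.59), at 23.1, 29.2, 19.3, 31.3, and 42.2 CPM after vehicle and 2.31, 1.603, 0.825, 4.32, and 0.695 CPM after the high dose. This interval was not higher in liver than in the other organs: its 24 h vehicle mean was 20.8 ± 12.3 CPM in liver, 44.96 ± 6.71 CPM in kidney, and 44.2 ± 2.94 CPM in heart (SD, n = 5), and in liver 24.4 ± 10.9 CPM without vehicle replicate 1 (n = 4).

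The low dose at 8 h was compared with the same 5 vehicle samples that chose the intervals, so its values are a description. The low-dose mean lay below the vehicle mean in 290 of the 300 intervals (282 without low-dose replicate 1) and between the high-dose and vehicle means in 277 (271). The median log2 difference was -0.81, against 0.18 for the other eligible intervals, and it was -0.73 without low-dose replicate 1. In 149 intervals, or 120 without replicate 1, the low-dose mean was at or under 50% of vehicle. Every low-dose sample was below every vehicle sample in 115 intervals, or 117 without replicate 1, and in 2.41% of the other eligible intervals. In 13 intervals, or 11 without replicate 1, the low-dose mean was below the high-dose mean. One was chr3:92670979-92690978 (rank 25), with low-dose samples at 2.56, 1.44, 1.119, 2.20, and 1.14 CPM, high-dose samples at 2.91, 3.87, 2.18, 6.15, and 3.33 CPM, and vehicle samples at 22.5, 25.5, 34.6, 10.6, and 20.9 CPM.

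**Figure D2:**
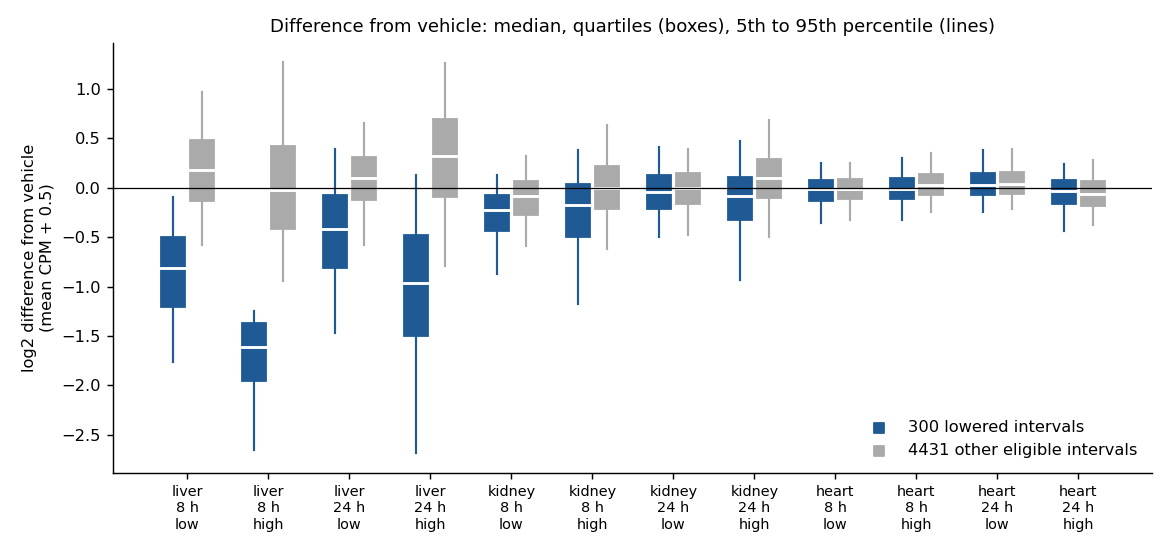
Log2 difference of the group means from vehicle (vertical axis, CPM + 0.5) for the 300 intervals and the 4431 other eligible intervals, by organ, time, and dose; boxes are quartiles with the median as a white line, and lines run from the 5th to the 95th percentile. The 300 stand at a median of -0.81 and -1.61 in liver at 8 h (low and high dose), -0.41 and -0.96 at 24 h, and within 0.23 of 0 in kidney and heart.

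The 24 h rats had no part in choosing the intervals, so whether the same intervals were lower a day after dosing could be tested. After the high dose, 148 of the 300 fell (edgeR quasi-likelihood test over all targets, Benjamini-Hochberg adjusted p of at most 0.01, and a log2 fold change of at least 0.87) and none rose. The filter on low counts passed 277 of the 300. Of the other eligible intervals tested, 8.81% were called lower and 2.2% higher. Summed CPM was 1642, 4353, 4646, 4392, and 4922 in the vehicle samples and 1502, 1252, 1744, 1696, and 1331 in the high-dose samples, which overlapped only through vehicle replicate 1, the library nearly identical with an 8 h low-dose library. The high-dose mean was 37.7% of vehicle, and 32.9% without that library. Of the 300 means, 26 were higher than vehicle, and 15 without that library.

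Because abundant intervals are easier to call, the calls were also split at the 300 intervals' median vehicle level of 5.85 CPM. At or above it, 98 of 150 were called lower, against 130 of 854 other eligible intervals (15.2%). Below it, the counts were 50 of 150 against 250 of 3577 (6.99%). Without vehicle replicate 1, 132 of 150 were called at or above this level, against 24.1% of the others, and 72.7% below it, against 17.98% of the others.

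The count at 24 h depended on single libraries and on the scaling. Without vehicle replicate 1, 241 of the 300 were called lower, against 19.5% of the other eligible intervals, and every high-dose sample was below every vehicle sample in 171 in place of 47 (2.78% of the other eligible intervals with all 5 vehicle samples, 7.27% without replicate 1). Without high-dose replicate 2 the count was 95, and without high-dose replicate 5 it was 85, with the share of the others not taken in either fit. With the 2 vehicle libraries whose interval share exceeded 20% left out it was 38 (2.4% of the others), and with vehicle replicate 1 left out as well it was 186 (11.1%). The TMM factors of edgeR, which rescale libraries on the assumption that most transcripts do not differ, moved the median log2 fold change of all targets from 0.70 to 0.03. With transcript totals alone as the scale, the median of the 277 tested was -1.13 in place of -1.83, 97 were called lower and none higher, and the other eligible intervals had 2.46% called lower and 13.9% called higher. DESeq2 called 229 lower, against 16.7% of the others.

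**Figure D3:**
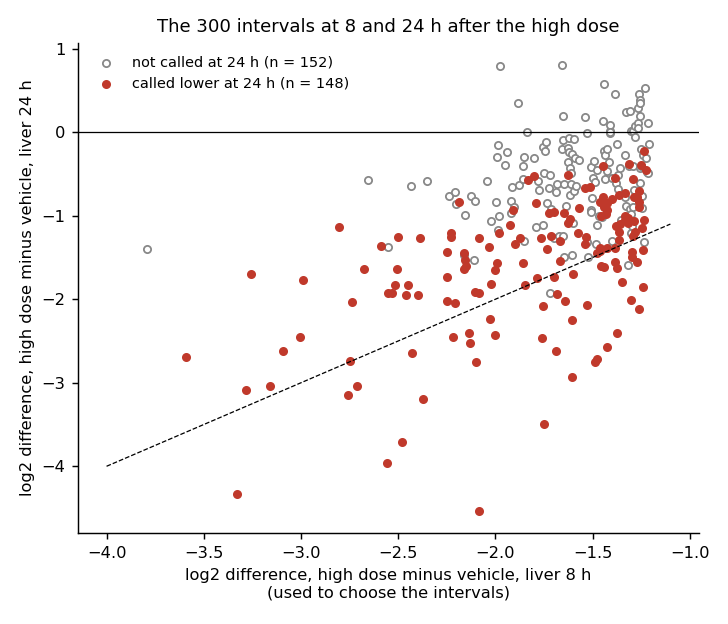
Each point is 1 of the 300 intervals: log2 difference between the high-dose and vehicle means in liver at 8 h (horizontal axis, which chose the intervals) and at 24 h (vertical axis), with the line of equal values dashed. Filled points are the 148 called lower at 24 h, and the 26 points above 0 had a higher mean than vehicle at 24 h, a count of 15 without vehicle replicate 1.

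Among the intervals called lower in liver 24 h after the high dose, the largest log2 fold change with a mean of at least 1 CPM was -5.41 ± 0.62 (SE, edgeR adjusted p = 0.000214) at chr10:90748247-90768246, rank 185 at 8 h. Its vehicle samples stood at 0.975, 3.75, 6.52, 3.92, and 3.38 CPM, and its high-dose samples at 0.157, 0.0486, 0.163, 0.0497, and 0.297 CPM. The groups did not overlap, and the high-dose values amount to few reads per library. Next were chr5:78009220-78029219 (-5.33 ± 0.56, edgeR adjusted p = 0.000167) and chr1:226108833-226113912 (-5.31 ± 0.49, edgeR adjusted p = 0.000104). The calls of these 3 held without any single library and under each other setting tried. Among the intervals named below, the calls at 24 h of chr3:2720014-2724115, chr7:123027651-123043002, chr3:171180196-171200195, chr3:171249886-171269885, chr4:117568849-117573973, chr4:120771589-120778079, chr17:69648267-69653670, and chr8:50527376-50528817 were lost when the libraries above 20% interval share were left out (edgeR adjusted p of 0.010 to 0.031).

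The rank at 8 h did not carry over in every case. For chr13:44375213-44395212, lowest at 8 h, the high-dose samples at 24 h stood at 4.63, 2.10, 6.20, 10.9, and 2.62 CPM, and the log2 fold change of -2.17 ± 0.70 did not pass (edgeR adjusted p = 0.0353). Without vehicle replicate 1 it passed, at -2.57 (edgeR adjusted p = 0.0019). For chr14:19073178-19078179 (rank 94), all 5 high-dose samples lay below the vehicle samples at 8 h, at 1.89, 3.47, 5.97, 2.97, and 3.02 CPM against 8.63, 14.1, 10.6, 21.3, and 13.7 CPM. At 24 h they stood at 13.2, 9.38, 16.7, 15.3, and 11.1 CPM, against vehicle samples at 8.80, 17.8, 13.04, 13.6, and 12.3 CPM, of which the first is replicate 1. The groups overlapped and the interval was not called (edgeR adjusted p = 0.0625), but without vehicle replicate 1 it was called lower, at -0.94 (edgeR adjusted p = 0.0041). These fits include the TMM factors. With all libraries and no TMM factors the log2 fold change was 0.0031 (edgeR adjusted p = 0.991). In CPM, the vehicle mean without replicate 1 was 14.2, within the range of the high-dose samples.

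After the low dose at 24 h, 6 of the 300 fell and none rose, with 289 tested, against 0.412% of the other eligible intervals. The median log2 difference of the 300 was -0.41, and -0.62 without vehicle replicate 1. Summed CPM was 2369, 2017, 2984, 2655, and 2451 in the low-dose samples, all above that replicate and all below the other 4 vehicle samples. Without vehicle replicate 1, 134 were called lower (6.89% of the others), and without the libraries above 20% interval share none was, with 76 at an unadjusted p under 0.05 in edgeR. With vehicle replicate 1 left out as well it was 42 (1.83%). DESeq2 called 66 (5.22%). Leaving out a single library other than vehicle replicates 1 and 2 left 1 call or 0.

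The largest of these was at chr3:92670979-92690978, with a log2 fold change of -4.83 ± 0.60 (SE, edgeR adjusted p = 0.00212). At 24 h its vehicle samples stood at 2.56, 12.1, 24.5, 17.7, and 18.5 CPM, its low-dose samples at 0.743, 0.365, 1.15, 0.615, and 0.814 CPM, and its high-dose samples at 0.719, 0.784, 1.46, 0.179, and 0.332 CPM. The doses overlapped each other and neither overlapped vehicle. The call was lost without low-dose replicate 1 (edgeR adjusted p = 0.011), with the interval share of each library as a covariate (edgeR adjusted p = 0.014), and without the libraries above 20% interval share (edgeR adjusted p = 0.023). At chr10:90748247-90768246, also called (-4.66 ± 0.71, edgeR adjusted p = 0.00475), the low-dose samples stood at 0.0911, 0.162, 0, 0.265, and 0.466 CPM, and this call was lost without any 1 of the libraries other than vehicle replicates 1 and 2.

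Between the doses at 24 h, 73 of the 300 were lower after the high dose and none higher, of 276 tested, against 2.04% of the other eligible intervals called lower. Without TMM factors the count was 45 (1.02%), and DESeq2 called 114 (4.08%). Leaving out 1 library gave 29 to 86 calls, the lowest count without low-dose replicate 3 or without high-dose replicate 5. Without low-dose replicate 1, 4, or 5 it was 42, 32, or 46, and without high-dose replicate 1 or 2 it was 35 or 34. The share of the other eligible intervals was not taken in these fits. At chr1:226108833-226113912 the log2 fold change between the doses was -3.52 ± 0.44 (SE, edgeR adjusted p = 0.001). At chr1:225904225-225924224, where the low-dose samples stood at 133, 37.8, 83.7, 102.8, and 44.9 CPM, it was -2.67 ± 0.40 (edgeR adjusted p = 0.00168). Every high-dose sample lay below every low-dose sample at both.

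In kidney the same intervals were tested to see whether they were lower outside the liver. In the high-dose rats at 8 h 18 of the 300 fell and none rose, of 209 tested, against 0.991% of the other eligible intervals called lower. At 24 h after the high dose 19 fell and none rose, of 222 tested, against 1.46%. After the low dose 2 fell at 8 h (0.169% of the others), and at 24 h none was called by edgeR or DESeq2 (0% of the others called lower by edgeR and 0.622% by DESeq2), with 35 at an unadjusted p under 0.05 in edgeR. The 8 h and 24 h high-dose lists shared 8 intervals, 8 of the 18 and 8 of the 19. Of the 29 called in either, 16 were also called lower in liver at 24 h, which is 16 of the 148 called there. Of all 300, 49.3% were called lower there, so the overlap was near that of the members as a whole. Summed CPM in kidney was 3335, 4019, 3177, 3264, and 3219.9 after vehicle at 8 h and 2703, 2633, 2437, 2657, and 2595 after the high dose, without overlap. Intervals abundant in kidney weigh most in these sums. The median log2 difference of the 300 there was -0.17, against 0.0012 for the other eligible intervals. Every high-dose sample was below every vehicle sample in 53 of the 300 (17.7%) and in 4.06% of the others.

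The count at 8 h in kidney ranged from 9 to 28 when 1 library was left out. It was 9 without high-dose replicate 4, 10 without high-dose replicate 2, 11 without vehicle replicate 1 or without vehicle replicate 4, and 28 without vehicle replicate 2, of which 2 were higher. For these fits the share of the other eligible intervals was not taken. The 2 calls at 8 h after the low dose became 0 or 1 when any single library was left out.

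The lowest adjusted p in kidney at 8 h among the named intervals belonged to an interval on an unplaced scaffold, AABR07024106.1:501-11033 (rank 253). Its kidney samples at 8 h stood at 15.7, 16.7, 16.95, 17.6, and 20.2 CPM after vehicle, 5.58, 9.01, 8.86, 10.99, and 7.97 CPM after the low dose, and 4.62, 5.53, 6.03, 5.10, and 4.15 CPM after the high dose. Vehicle and treated samples did not overlap, and the high dose gave a log2 fold change of -1.76 ± 0.14 (SE, edgeR adjusted p = 3.58e-05). At 24 h it stood at 18.9, 9.18, 15.1, 18.8, and 18.4 CPM after vehicle and 7.73, 7.84, 6.62, 4.78, and 9.399 CPM after the high dose, with overlap in 1 sample of each group (-1.26 ± 0.22, edgeR adjusted p = 0.00319). The largest fall in kidney at 8 h was at chr17:69648267-69653670, from 8.19, 3.34, 11.7, 9.37, and 13.3 CPM to 2.65, 1.36, 0.910, 1.52, and 1.95 CPM. The groups did not overlap (-2.41 ± 0.36, edgeR adjusted p = 0.00251), and the call was lost without high-dose replicate 2 or 4 (edgeR adjusted p = 0.011 for each).

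The largest fall in kidney at 24 h was at chr17:8429839-8434802, with vehicle samples at 2.83, 1.26, 3.77, 3.87, and 2.95 CPM, low-dose samples at 4.06, 1.43, 2.57, 3.33, and 1.23 CPM, and high-dose samples at 0.0373, 0.189, 0.0890, 0.0558, and 0.190 CPM. The high-dose samples stood apart from both other groups (-4.74 ± 0.44, SE, edgeR adjusted p = 4.78e-05). In liver at 24 h the same interval had a log2 fold change of -1.94 ± 0.64 that did not pass (edgeR adjusted p = 0.0362). It passed there without vehicle replicate 1 (-2.33, edgeR adjusted p = 0.00304) and by DESeq2 (-2.04, adjusted p = 0.00568). At chr14:19073178-19078179 the kidney samples at 24 h stood at 7.79, 2.61, 3.92, 3.71, and 4.68 CPM after vehicle and 0.337, 0.859, 1.17, 0.397, and 0.577 CPM after the high dose, again without overlap (-2.90 ± 0.39, edgeR adjusted p = 0.000604).

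Of the 300, 6 were called lower in all 3 of liver at 24 h, kidney at 8 h, and kidney at 24 h after the high dose. The share of the other eligible intervals called in all 3 was not taken, so the count is a description. Among the 6 was chr7:123027651-123043002 (rank 7). Its 24 h liver samples stood at 1.84, 15.2, 17.7, 19.03, and 22.7 CPM after vehicle and 1.57, 1.80, 2.12, 3.47, and 1.33 CPM after the high dose, overlapping only through vehicle replicate 1. Its 24 h kidney samples stood at 41.9, 32.2, 41.3, 51.9, and 35.5 CPM after vehicle and 14.1, 14.9, 21.7, 23.9, and 17.9 CPM after the high dose. The log2 fold change was -3.62 ± 0.61 in liver (SE, edgeR adjusted p = 0.00137) and -1.24 ± 0.18 in kidney (edgeR adjusted p = 0.000847). Another was chr3:2720014-2724115 (rank 5), whose 24 h low-dose livers were within 29.8 to 31.4 CPM and whose high-dose livers stood at 17.1, 18.03, 16.3, 24.4, and 16.3 CPM, against 13.2, 57.7, 85.5, 61.4, and 87.2 CPM after vehicle.

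In heart none of the 300 was called in either direction by edgeR. At 8 h there were 162 tested for the high dose and 173 for the low dose, with 11 and 12 at an unadjusted p under 0.05. At 24 h there were 171 and 176 tested, with 31 and 12. DESeq2 called 1 lower at 24 h after the high dose and none in the other 3 comparisons, and edgeR called 1 at 24 h after the high dose without vehicle replicate 5. The other eligible intervals had 0% called lower in the 3 comparisons other than the high dose at 24 h, which had 0.0792%. Summed CPM in heart ranged from 1017 to 1236 over the 30 libraries.

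**Figure D4:**
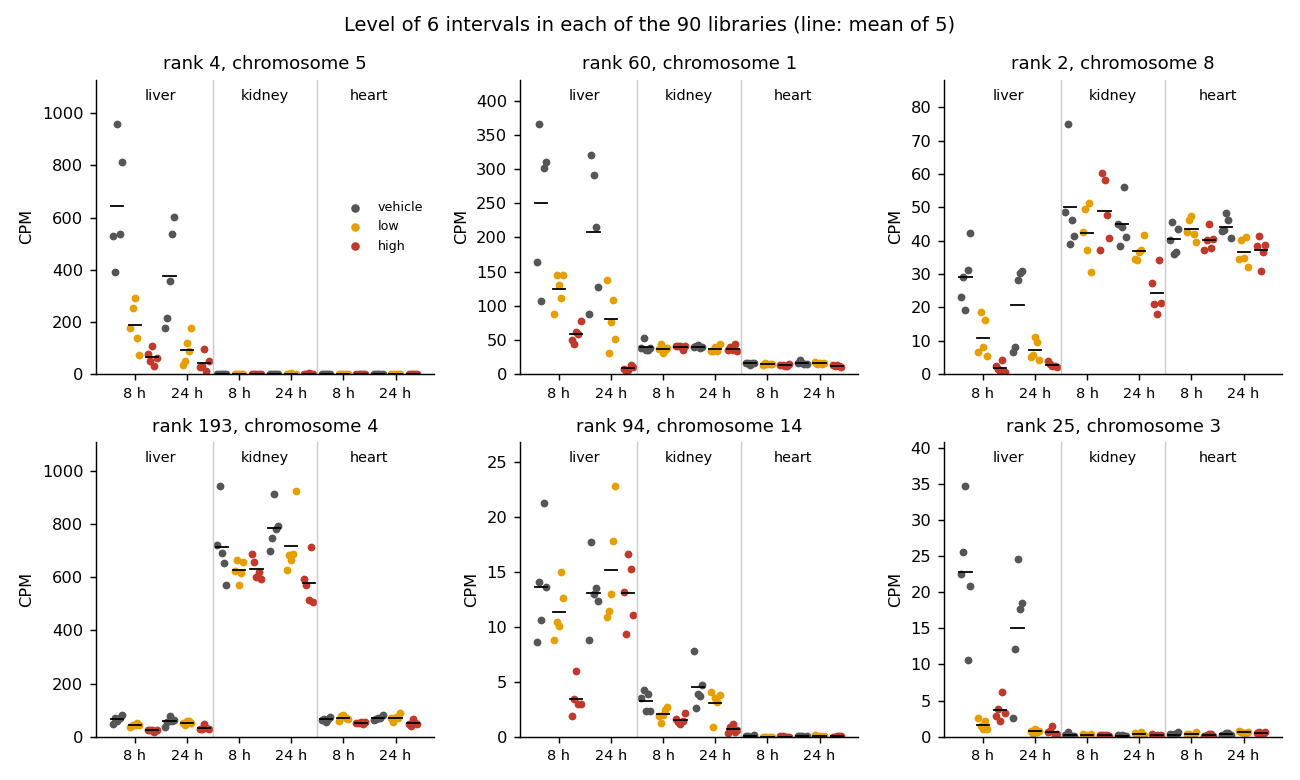
CPM (vertical axis, from 0) of 6 of the intervals in each library, by organ and time, with dose by colour and the mean of 5 as a line; each panel is named by rank at 8 h and chromosome. The top left interval is near 0 outside liver, the bottom left one is most abundant in kidney (24 h vehicle mean 785 CPM), and in the bottom middle one the high dose and vehicle overlap in liver at 24 h but not in kidney at 24 h.

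Many of the 300 were more abundant in liver than in the other organs of vehicle-treated rats. The floor of 0.5 CPM was set in liver alone, which favours intervals rich in liver. The other eligible intervals met the same floor but had lower levels in the 8 h vehicle livers, and the counts were not split by level. In the 24 h vehicle samples, 178 were higher in liver than in kidney and 15 lower, of 283 tested. Of the other eligible intervals, 15.1% were higher and 15.4% lower in liver. Against heart, 204 were higher in liver and 10 lower, of 273 tested, where the others had 24.8% higher and 16.9% lower. Part of these calls were of intervals that passed the low-count filter only through liver. Of the 222 that also passed it within kidney, 117 were higher in liver and 15 lower (11.8% and 16.1% of the others). Of the 171 that also passed it within heart, 104 were higher in liver and 10 lower (17% and 18.9% of the others). The TMM factors bear on these counts. Without them, all targets had a median log2 fold change of -1.13 between liver and kidney in place of -0.22, and 149 of the 300 were called higher and 49 lower in liver (7.63% and 49.1% of the others). Against heart the counts without them were 187 higher and 19 lower (16.5% and 28.7% of the others). Without vehicle replicate 1 the counts were 204 and 15 against kidney (18.3% and 13.3% of the others) and 245 and 5 against heart (31.4% and 14.8%). Of the 300, 212 reached a mean of 0.5 CPM in kidney and 162 in heart.

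At one end, chr8:50527376-50528817 stood at 6.66, 19.5, 18.4, 24.8, and 14.3 CPM in the 24 h vehicle livers and had no counts in the 5 vehicle hearts. Taking 3 counts per library as the limit that a count of 0 allows, which is 0.101 to 0.167 CPM in these hearts, it was at least 122-fold higher in liver. In all, 6 of the 300 had no counts in these hearts. At the other end, chr4:120771589-120778079 (rank 193) stood at 35.9, 55.4, 76.7, 58.1, and 64.7 CPM in liver, 696, 746, 911, 782, and 792 CPM in kidney, and 64.2, 66.2, 71.4, 70.1, and 80.8 CPM in heart. Its liver and heart samples overlapped, and every kidney sample was far above both (liver against kidney, -2.79 ± 0.24, SE, edgeR adjusted p = 1.15e-06). After the high dose it fell in liver at 24 h, to 29.6, 29.5, 47.4, 34.04, and 28.8 CPM (-1.49 ± 0.26, edgeR adjusted p = 0.00178), and without TMM factors that change was -0.78, under the limit on size. At chr20:1667275-1677867, the heart samples stood at 45.2, 30.7, 44.9, 45.6, and 42.9 CPM, against a liver mean of 1.21 ± 0.575 CPM (SD, n = 5).

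**Figure D5:**
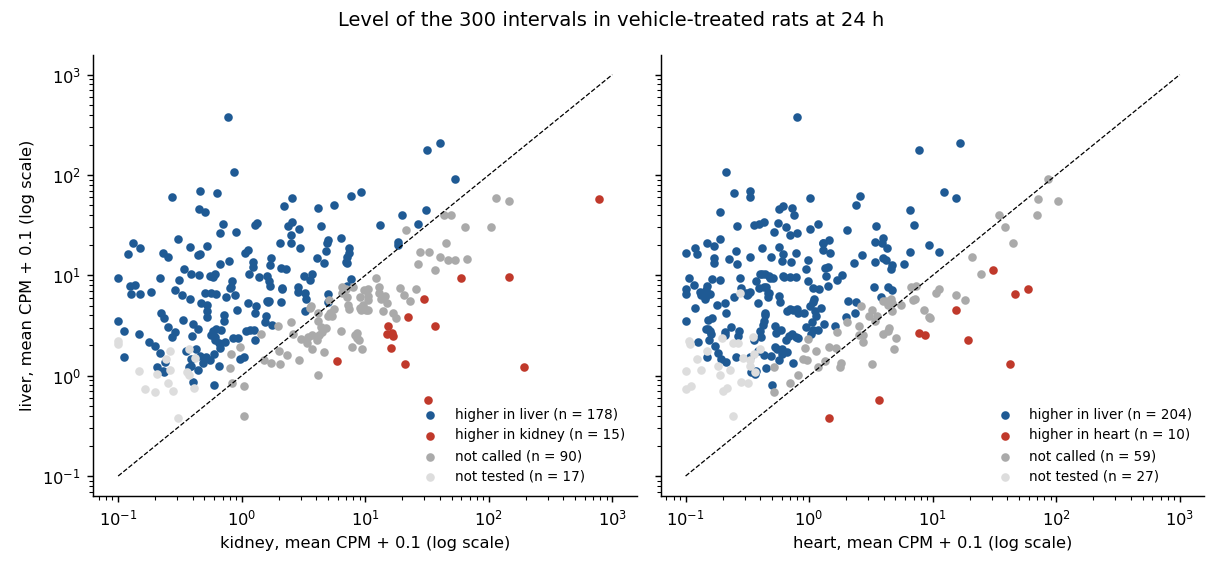
Mean level of the 300 intervals in 24 h vehicle samples of liver (vertical axes) against kidney (left) and heart (right), CPM + 0.1 on log axes, with the line of equal levels dashed. Blue points, 178 against kidney and 204 against heart, were called higher in liver, and red points, 15 and 10, lower. Of the blue points, 117 and 104 also passed the low-count filter within the other organ.

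Whether the change at 24 h after the high dose differed between organs was tested as an interaction over 20 libraries. By the study's methods, with each rat giving every organ, these would come from 10 rats, though the labels name no rat. The fit took the libraries as independent. The counts that follow are of intervals that also passed the low-count filter within the other organ, because an interval near 0 there could show no fall. Against kidney, 54 of 222 were lowered more in liver and 1 less, where the other eligible intervals had 2.7% and 0.98%. Against heart the count was 69 of 171, with none in the other direction, where the others had 5.83% called in the same direction. Over all 287 and 284 tested, the counts were 60 and 1 against kidney (2.93% and 0.93% of the others) and 78 against heart (5.86%), and DESeq2 called 110 and 1 against kidney (6.88% and 1.61%) and 145 against heart (11.3%).

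The number of these calls moved with the libraries and the design. Without vehicle replicate 1 of the liver, the counts were 123 and 1 against kidney (7.65% and 1.91% of the others) and 136 against heart (14.3%). Without TMM factors they were 39 and 2 against kidney (1.05% and 5.52% of the others) and 43 against heart (1.16%). With organs paired by library number and the pair as a block, and unpaired libraries left out, they fell to 12 and 0 against kidney (0.287% of the others called lower) and 32 against heart (1.95%). In the same paired fit without the pair of vehicle replicate 1 they were 75 and 0 (3.08%) and 117 (8.58%).

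At chr1:226108833-226113912, which had 40.2 ± 1.49 CPM in kidney after vehicle and 37.4 ± 4.11 CPM after the high dose (SD, n = 5), the log2 change in liver was lower than that in kidney by 5.12 ± 0.48 (SE, edgeR adjusted p = 3.87e-06), and the call held with the pairs as a block (edgeR adjusted p = 0.0019). At chr10:90748247-90768246 the heart held more than the liver, with 24 h vehicle samples at 11.6, 9.49, 10.2, 8.87, and 6.36 CPM and high-dose samples at 6.11, 4.90, 5.94, 4.19, and 4.96 CPM, overlapping in no sample. There the liver change was lower than that in heart by 4.73 ± 0.61 (edgeR adjusted p = 3.43e-05, and 0.0048 with the block). The single interval lowered less in liver was chr14:19073178-19078179, with a difference of 2.20 ± 0.47 (edgeR adjusted p = 0.00419). This call was lost with the block (edgeR adjusted p = 0.113), with the paired libraries alone and no block (edgeR adjusted p = 0.0329), and without high-dose kidney replicate 1 (2.03, edgeR adjusted p = 0.010) or 5 (2.13, edgeR adjusted p = 0.011).

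The intervals were spread over the genome with some local groups. Chromosome 1 held 47 of them, and chromosomes 10, 2, and 8 held 25, 22, and 22. The share of eligible intervals among the 300, 6.34% in all, was 8.06% on chromosome 1, 8.89% on chromosome 17, and 2.4% on chromosome 18. In all, 46 of the 300 had another within 50 kb, in 20 groups, of which 15 were pairs. Within 10 kb the number was 17 and within 200 kb 69. Going along each chromosome, the next eligible interval was 1 of the 300 for 44 of 296 of them (14.9%) and for 254 of 4399 other eligible intervals (5.77%). The counts describe neighbours that can belong to the same transcribed unit. Eligible intervals that were not chosen but lay within 50 kb of 1 of the 300 had 22 called lower 24 h after the high dose (20.95%), against 358 of 4326 farther away (8.28%).

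With intervals up to 200 kb apart joined, the group with the most members lay at chr5:77903614-78062588, where 6 of 7 eligible intervals over 159 kb were among the 300. At 50 kb it falls into groups of 4 and 2. Besides chr5:77903614-77916908, these were chr5:77920037-77940036 (rank 6), chr5:78009220-78029219 (rank 3), chr5:78043057-78062588 (rank 11), and the low-abundance chr5:77999996-78001789 (rank 169) and chr5:78035834-78040396 (rank 127). Summed over the 6, the 8 h livers held 684, 492, 1267, 652, and 981 CPM after vehicle, 218, 304, 356, 171, and 86.97 CPM after the low dose, and 99.6, 67.6, 136, 38.3, and 81.5 CPM after the high dose. Vehicle did not overlap either dose. The sum at 8 h was 27.9% of vehicle in the low-dose rats and 10.4% in the high-dose rats.

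At 24 h the same 6 summed to 218, 294, 488, 669.5, and 811 CPM after vehicle, 41.6, 61.5, 145, 104.9, and 213.5 CPM after the low dose, and 34.9, 39.2, 111, 17.6, and 60.5 CPM after the high dose. The treated groups overlapped each other but not vehicle. This was 22.8% of vehicle after the low dose and 10.6% after the high dose, or 20.04% and 9.31% without vehicle replicate 1. Of the 6, 4 were called lower after the high dose, and chr5:78009220-78029219 and chr5:78043057-78062588 also after the low dose (edgeR adjusted p = 0.00488 and 0.00747). The former call was lost without any single library except vehicle replicates 1 and 2 (edgeR adjusted p of 0.011 to 0.019). Apart from the fit without low-dose replicate 1, the latter call was lost too in these fits. In them another interval held the only low-dose call left. Whether the latter call held without low-dose replicate 1 was not determined. In kidney the 6 together reached no more than 10.1 CPM in any library and in heart no more than 9.90 CPM.

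At chr3:171180196-171269885 all 3 eligible intervals were among the 300, and all 3 were called lower at 24 h after the high dose and higher in liver than in kidney and heart. The first of them, chr3:171180196-171200195 (rank 8), stood at 34.03, 19.4, 47.7, 27.5, and 26.9 CPM after vehicle at 8 h, 8.17, 8.04, 12.8, 9.24, and 4.94 CPM after the low dose, and 2.83, 2.88, 5.75, 2.30, and 3.40 CPM after the high dose. At 24 h the high-dose samples stood at 4.11, 3.92, 5.65, 3.76, and 3.37 CPM, below vehicle at 8.17, 9.35, 30.5, 48.1, and 28.6 CPM (-3.34 ± 0.53, SE, edgeR adjusted p = 0.00103). At chr3:171249886-171269885 the call was lost without high-dose replicate 1 or 5 (edgeR adjusted p = 0.011 for each).

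In a group of 3 intervals on chromosome 4, 2 were called lower in liver and 2 in kidney at 24 h after the high dose, with 1 called in both. At chr4:117568849-117573973 (rank 82) the 24 h liver samples stood at 11.3, 33.1, 34.2, 34.5, and 38.2 CPM after vehicle and 16.98, 13.98, 18.6, 16.1, and 12.4 CPM after the high dose, overlapping only through vehicle replicate 1. Its kidney samples stood at 60.6, 37.9, 75.6, 65.7, and 78.2 CPM after vehicle, 36.3, 20.5, 27.7, 44.2, and 48.4 CPM after the low dose, and 22.3, 19.3, 22.1, 25.4, and 17.9 CPM after the high dose. The log2 fold change after the high dose was -1.67 ± 0.34 in liver (SE, edgeR adjusted p = 0.00358) and -1.67 ± 0.19 in kidney (edgeR adjusted p = 0.000166), and the liver call was lost without TMM factors (-0.95, edgeR adjusted p = 0.014) and without high-dose replicate 2 or 5 (edgeR adjusted p = 0.012 for each). The interval beside it, chr4:117575656-117582281 (rank 61), passed in kidney at 24 h (-2.43 ± 0.35, edgeR adjusted p = 0.000898). In liver it passed only without vehicle replicate 1 (-1.66, edgeR adjusted p = 0.000635) or by DESeq2 (-1.43, adjusted p = 0.0012), and with all libraries its edgeR value was -1.33 ± 0.37 (adjusted p = 0.0168). The third, chr4:117552990-117567167, passed in liver (-3.29 ± 0.39, edgeR adjusted p = 0.000256), with a mean of 31.3 CPM after vehicle and 5.24 CPM after the high dose, and did not pass in kidney (-1.67 ± 0.40, edgeR adjusted p = 0.018).

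On the same stretch of chromosome 4, chr4:117472699-117489534 was far more abundant in kidney, with 24 h vehicle means of 192 ± 14.7 CPM in kidney and 1.13 CPM in liver. In kidney at 8 h it stood at 302.5, 212, 245, 278, and 202 CPM after vehicle, 115, 134, 127, 183, and 81.1 CPM after the low dose, and 128, 124, 81.8, 115, and 102.5 CPM after the high dose. Both doses lay wholly below vehicle, and the high dose passed the test at 8 h (-1.16 ± 0.16, SE, edgeR adjusted p = 0.0013) and at 24 h (-1.05 ± 0.17, edgeR adjusted p = 0.00204).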

How the data were processed

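Poly-A RNA from liver, kidney, and heart was sequenced in 90 libraries. The authors quantified the reads with Kallisto, and the deposited tables list, for each target, estimated counts and TPM. The submitters' processing notes name kallisto 0.42.2 and build Rnor_6.0, and how intervals entered the reference is not given in the sources used here. The TPM were not used. No genome or annotation of that build was used here, so intervals are named by position, no sequence is shown, the gene and cell type lists could not be applied, and the tissues were not checked against markers.

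CPM were computed from the estimated counts over the transcript counts of each library. For tests they were rounded to integers, low targets were removed with filterByExpr, and all transcripts and intervals were fitted in 1 table with the quasi-likelihood test of edgeR 4.0.16 in R 4.3.3. Library sizes and TMM factors came from transcripts only. P-values were adjusted by Benjamini-Hochberg over all targets tested. Calls needed an adjusted p of at most 0.01 and a natural-log fold change of at least 0.6 (0.87 on the log2 scale), with no limit on size for interactions. The contrast that chose the intervals, and the low dose at 8 h, which shares its vehicle samples, were not tested.

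Groups came from the labels, and replicates were numbered in accession order, which pairs nothing. The intervals and the lists were chosen with earlier results of these data known. Intervals are named if they had the 8 highest vehicle levels, the 8 lowest log2 differences, a place on either side of the limit, a place in the 3 largest groups by position, or were among the 3 largest calls in either direction of a comparison with a mean of at least 1 CPM. Alternatives were DESeq2 1.42.0, leaving out each sample, other filters, scalings, and covariates, and other distances. The fits without TMM factors, those without the libraries above 20% interval share, and those with organs paired by library number as a block, were chosen after seeing the data. The scripts were tested on simulated data. Python 3.11.15 with numpy 2.4.6, pandas 2.3.3, and matplotlib 3.10.9 was used for the rest.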

Additional observations from a re-analysis of the deposited data

Results flagged for a closer look

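Among the groups of 5 values examined for a sample far from the others, 10 samples stood apart, and chance alone marks about 1 in 20 groups. The summed level of the 300 intervals was 1642 CPM in vehicle replicate 1 of the liver at 24 h, the library nearly identical with low-dose replicate 1 at 8 h, against 4353 to 4922 CPM in the other 4. It was 3658 CPM in vehicle replicate 1 of the liver at 8 h, against 4644 to 4964 CPM, and 4019 CPM in vehicle replicate 2 of the kidney at 8 h, against 3177 to 3335 CPM.

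At chr4:65082716-65102715 low-dose replicate 5 at 8 h stood at 86.6 CPM, against 14.02 to 24.3 CPM, and low-dose replicate 3 at 24 h at 149 CPM, against 5.19 to 40.2 CPM. At chr5:77920037-77940036 vehicle replicate 3 at 8 h stood at 88.9 CPM, against 29.3 to 46.3 CPM, and high-dose replicate 3 at 24 h at 7.15 CPM, against 1.49 to 2.82 CPM. High-dose replicate 3 at 24 h also stood apart at chr4:120771589-120778079, with 47.4 CPM against 28.8 to 34.04 CPM. At chr3:2720014-2724115 high-dose replicate 4 at 24 h stood at 24.4 CPM, against 16.3 to 18.03 CPM. At chr3:171180196-171200195 low-dose replicate 5 at 24 h stood at 13.8 CPM, against 7.91 to 9.38 CPM.

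The change 24 h after the high dose differed between organs by the interaction test of edgeR. Against kidney, 60 intervals were lowered more in liver and 1 less (2.93% and 0.93% of the other eligible intervals). Against heart 78 were lowered more (5.86% of the others). With organs paired by library number as a block, 14 and 37 were lowered more (0.409% and 1.98% of the others) and none less. The log2 change in liver differed from that in kidney by -5.68 at chr3:92670979-92690978 (edgeR adjusted p = 0.000647), by -5.32 at chr10:90748247-90768246 (0.000297), by -5.12 at chr1:226108833-226113912 (3.87e-06), and by 2.20 at chr14:19073178-19078179 (0.00419). It differed from that in heart by -5.77 at chr3:92670979-92690978 (edgeR adjusted p = 9.39e-05), by -5.53 at chr5:78009220-78029219 (3.07e-05), and by -5.03 at KL568405.1:81293-91727 (0.000961). Several of these intervals had little level in the other organ: the 24 h vehicle mean was 0.155 CPM in kidney and 0.393 CPM in heart at chr3:92670979-92690978, 0.422 CPM in kidney at chr10:90748247-90768246, 0.916 CPM in heart at chr5:78009220-78029219, and 0.471 CPM in heart at KL568405.1:81293-91727. With the block, the calls against kidney at chr3:92670979-92690978, chr10:90748247-90768246, and chr14:19073178-19078179 and the call against heart at KL568405.1:81293-91727 were lost (edgeR adjusted p of 0.021 to 0.113).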

How the results depend on the processing

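No library number is shared between dose groups, and the replicate numbers, which recur in every group, pair nothing. Between organs, most library numbers differ by 30 (kidney) or 60 (heart), and although the labels do not say that they mark rats, this pairing was tried after seeing the data. At 24 h, deviations from the group means over transcripts had a median correlation of 0.231 in 8 liver and kidney pairs and 0.125 in 9 liver and heart pairs, of which 6 and 5 exceeded 0.1, against -0.0451 and -0.0151 in other combinations. With the replicate block, 14 of the 300 were called in the interaction with kidney and 37 in that with heart, all lower. Of the other eligible intervals, 0.409% and 1.98% were called lower. The same libraries with no block gave 30 and 73 (1.63% and 5.06% of the others). The block without the pair of vehicle replicate 1 gave 86 and 143 (3.1% and 8.26% of the others). The block kept the counts between vehicle organs within 1.5 times. Of the 275 recomputed values over whole comparisons, 216 stayed within 1.5 times the reported value and 59 did not. DESeq2 in place of edgeR called 229 of the 300 in liver at 24 h after the high dose, 66 after the low dose, 114 between the doses, 29 in kidney at 8 h after the high dose (27 lower and 2 higher) and 12 lower after the low dose, 1 in heart at 24 h after the high dose, and 111 and 145 in the interactions with kidney and heart. In kidney at 8 h DESeq2 called 2.02% of the others lower and 2.21% higher after the high dose. After the low dose it called 0.819% of the others lower there. Without TMM factors the counts were 97 in liver at 24 h after the high dose, 45 between the doses, 1 in kidney at 8 h after the low dose, and 49 in the interaction with heart. In that interaction 1.44% of the others were called lower and 17.7% higher. Leaving out the libraries above 20% interval share gave 38 for the high dose and 0 for the low dose at 24 h, leaving out vehicle replicate 1 as well gave 42 after the low dose, and the interval share as a covariate gave 0 after the low dose (48 at an unadjusted p under 0.05 in edgeR). A covariate for library numbers above 90 gave 4 in kidney at 8 h after the low dose. Leaving out 1 library gave 85 to 241 in liver at 24 h after the high dose, 0 to 134 after the low dose, 29 to 86 between the doses, 9 to 28 and 0 to 1 in kidney at 8 h, 0 to 1 in heart at 24 h after the high dose, 42 to 139 and 58 to 172 in the interactions, and -0.89 to -0.73 for the median at 8 h after the low dose. Against vehicle in liver at 24 h, the highest counts came from leaving out vehicle replicate 1. Among the fits that left out 1 library, the share of the other eligible intervals was taken only for those without that library. Within 10 kb, 17 intervals had a neighbour among the 300. The log2 fold change of chr14:19073178-19078179 in liver at 24 h, not called, became 0.0031 without TMM factors, and without vehicle replicate 1 it was -0.94 and called (edgeR adjusted p = 0.0041). The causes were not tested. Single intervals lost their call in 91 recomputed values and gained one in 33. Of the 300, 46 had fewer than 50 counts per vehicle library at 8 h, which limits their precision.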
